A study of Sus scrofa with 23 samples.

Results

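The genes of the proteasome were followed through 23 libraries of porcine oocytes and pre-implantation embryos. Members were the rows of the deposited FPKM table (fragments per kilobase of gene, scaled by the fragments of the library) whose Ensembl symbol begins with PSM, a letter from A to G and a digit, which gave 35 of 8603 genes. The core comprised 12 of them, 7 of the alpha ring (PSMA) and 5 of the beta ring (PSMB). The regulatory rows were 21, with 6 ATPases of the base (PSMC), 12 PSMD rows and 3 PSME rows. The inhibitor gene PSMF1 and the assembly factor gene PSMG3 were the other 2. One row, PSME3IP1, carries the name of a protein that binds the activator PSME3 and is no subunit. It stays among the regulatory rows because the symbol rule takes it. PSMB5, PSMB6, PSMB8, PSMB9 and PSMB10 were not analysed here, so the catalytic genes were represented by PSMB7 alone and the immunoproteasome not at all.

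Each condition had 1 library, made from a pool of about 10 oocytes or embryos, with about 5 to 10 for cloned embryos. The IV-D group (8 libraries) held in vivo matured oocytes of 2-year-old Duroc sows and embryos flushed from inseminated Duroc sows, all sired by 1 Duroc boar. In the NT-D group (8) and the NT-LW group (7), embryos were cloned by nuclear transfer from ear fibroblasts of that 1-year-old Duroc boar and of a 1-year-old Laiwu boar, each 1 cell line, and were grown in PZM3 medium. Cloned embryos were therefore all male and cultured, whereas IV-D embryos were of both sexes and not cultured. The NT-D oocyte library is of in vitro matured slaughterhouse oocytes of hybrid sows, the recipients of both cloned groups. Its strain label of Duroc does not come from these egg donors. Eggs of the cloned groups thus differed from those of IV-D in breed and in maturation. That library served as the oocyte of both cloned groups. Blastocysts were cut into a part with inner cell mass and trophectoderm (IT) and a part with trophectoderm alone (TE).

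The proteasome is the protease that degrades proteins tagged with ubiquitin. Its core particle is a barrel of rings: alpha subunits gate the entrance and beta subunits form the chamber, in which only a few of them cut. A regulatory particle caps the barrel. The base of the cap has ATPases that unfold the substrate, and its lid removes ubiquitin, a step carried out by PSMD14. Since each subunit has a fixed place in the complex, cells usually make core and cap subunits in balanced amounts. Early embryos live at first on mRNA and proteins stored in the egg, many of which are degraded before and while the embryo's own genome is switched on, which in the pig occurs mainly around the 4-cell stage.

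Depth was 14952784 to 22991067 fragments per library, recovered from the FPKM values themselves, and 31 of the 35 members reached an FPKM of 1 in every library. By its label the table holds genes called differentially expressed by the authors, so members and background alike were chosen for having changed somewhere. Genes are called changed, higher or lower here where log2(FPKM + 1) of a pair of libraries was over 1 apart, provided that FPKM reached 1 in either of the pair. The study also sequenced further replicates of some stages, which are not analysed here. As each condition had a single library, no value has a replicate error and no difference could be tested. The share of all tested genes that changed is therefore printed beside each count of members. Of the oocyte markers, 7 of 9 were in the table. They summed to 1720 and 2790 FPKM in IV-D and NT-D oocytes and to at most 4.36 in IT and TE, and 7 of 8 trophectoderm markers summed to at most 29.7 up to the 4-cell stage and to 1260 to 2920 in IT and TE. Inner cell mass markers in the table were 2 of 5, NANOG and KLF17. NANOG was at 9.8, 5 and 3.76 in the IV-D, NT-D and NT-LW IT libraries and at 0 in the 3 TE libraries. KLF17 was at 14.2, 2.56 and 2.45 in IT and at 0.821, 1.18 and 3.3 in TE, so in NT-LW it was higher in TE. The 5 fibroblast markers of 11 in the table summed to at most 31.5 in any library. Of the leukocyte markers 2 of 10 (FCER1G and LCP1) and of the cumulus markers 2 of 7 (HAS2 and PTGS2) were in the table. The former summed to 34.3 to 1050 FPKM in IT and TE, nearly all of it FCER1G, and the latter to 113 to 395.

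Promoters are shown for 4 members whose time courses differed most plainly, as the 250 bases before the RefSeq gene start in Sscrofa11.1, on the strand of the gene. PSMC5 and PSMC6 encode base ATPases that were scarce in the egg, PSMA1 an alpha subunit that was abundant there, and PSMA8 the alpha subunit known from the germline. Capitals mark the words that were searched for. The gene of PSMC5 lies at chr12:15101946-15106326 on the minus strand and its promoter at chr12:15106327-15106576. PSMC6 lies at chr1:182329070-182354959 (promoter chr1:182328820-182329069), PSMA1 at chr2:44740102-44755296 (promoter chr2:44739852-44740101) and PSMA8 at chr6:110799065-110836937 (promoter chr6:110798815-110799064), all on the plus strand.
PSMC5: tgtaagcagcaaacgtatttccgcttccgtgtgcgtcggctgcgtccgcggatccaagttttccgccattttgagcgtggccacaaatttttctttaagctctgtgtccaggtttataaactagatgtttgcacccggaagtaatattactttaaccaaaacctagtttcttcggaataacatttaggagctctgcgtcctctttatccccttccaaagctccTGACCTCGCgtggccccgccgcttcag
PSMC6: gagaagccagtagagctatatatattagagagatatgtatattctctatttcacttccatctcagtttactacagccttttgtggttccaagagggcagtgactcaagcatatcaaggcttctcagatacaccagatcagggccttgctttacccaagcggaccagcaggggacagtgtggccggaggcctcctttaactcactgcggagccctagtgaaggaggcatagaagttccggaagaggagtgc
PSMA1: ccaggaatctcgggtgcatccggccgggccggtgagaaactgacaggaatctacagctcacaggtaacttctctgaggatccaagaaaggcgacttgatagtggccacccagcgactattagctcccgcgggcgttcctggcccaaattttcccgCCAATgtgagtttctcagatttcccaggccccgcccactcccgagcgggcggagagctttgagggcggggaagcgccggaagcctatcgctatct
PSMA8: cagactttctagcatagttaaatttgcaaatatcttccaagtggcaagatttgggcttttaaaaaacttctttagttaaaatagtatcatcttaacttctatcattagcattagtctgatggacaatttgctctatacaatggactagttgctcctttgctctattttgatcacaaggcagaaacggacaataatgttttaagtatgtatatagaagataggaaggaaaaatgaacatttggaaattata

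The capitals in the PSMC5 promoter are the core of the antioxidant response element, TGACNNNGC, a word bound by factors such as NFE2L1, which drives proteasome genes in cells short of proteasomes. On both strands it was found in 2 of 34 members with a RefSeq position, PSMC5 and PSMD14, or 5.88%, against 9.97% of 19506 promoters of protein-coding genes. The capitals in the PSMA1 promoter are a CCAAT box, which 14 of the 34 members (41.2%) and 31.9% of all promoters held. The E-box CACGTG was in 0 of 34 members and 6.4% of promoters. The promoters of PSMC6 and PSMA8 held none of them. PSME3IP1 had no RefSeq position under that symbol.

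Up to the 4-cell stage the 35 members summed to 1735 to 2371 FPKM, and from the 8-cell stage on to 3371 to 4964. The ranges did not overlap on FPKM as deposited. They did under median-ratio scaling, which divides the IV-D 2-cell library by 0.561 and the NT-D morula library by 1.58. In order from the 2-cell stage to the morula, the IV-D libraries summed to 2111, 1735, 4964 and 4421, the NT-D libraries to 2150, 1745, 4596 and 3964, and the NT-LW libraries to 1942, 2109, 4547 and 4650. As a share of all FPKM in the table this was 0.346% to 0.476% in the 11 earlier libraries and 0.489% to 0.96% in the 12 later ones. FPKM is relative to the RNA of the library, so a larger amount per embryo and less of other RNA cannot be told apart. Of the 35 members, 30 (85.7%) had their highest value in an 8-cell or later library, compared with 53.5% of all genes of the table. In 12 members (34.3%) every later library was above every earlier one, compared with 15.3% of all genes. The 5 members highest before the 8-cell stage were PSMA8, PSMB2, PSMD3, PSMD5 and PSMD9, the last 2 being chaperones that help assemble the base.

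**Figure D1:**
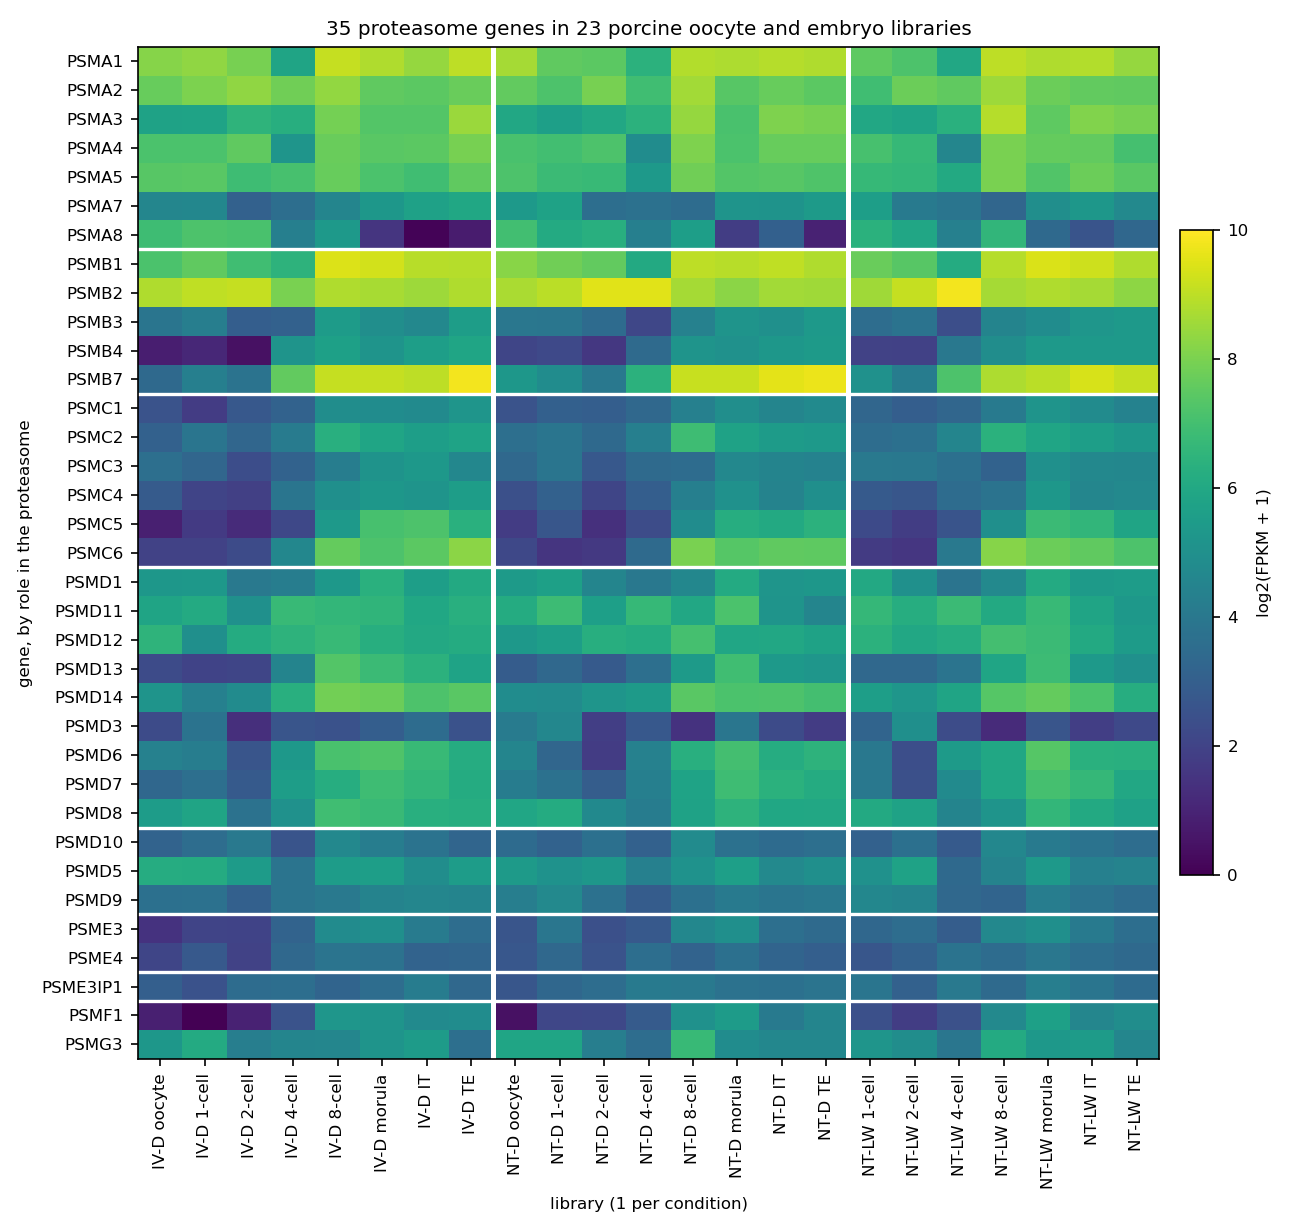
Level of each of the 35 proteasome genes (rows, grouped by role) in each of the 23 libraries (columns, 1 library per condition), as log2(FPKM + 1) in colour. White lines separate the roles and the 3 embryo groups. PSMB7, PSMC5 and PSMC6 are darker in the egg than from the 8-cell stage on. PSMA8 is brighter in the egg than from the morula on, and PSMB2 is bright throughout.

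Core and regulatory genes differed in the direction of their median change between the 2-cell and the 4-cell stage. Core levels were the higher ones, so the levels of the classes drew nearer. The core median FPKM over the regulatory median was 19.8 and then 4.84 in IV-D, 13.3 and 4.58 in NT-D, and 6.67 and 4.86 in NT-LW. In the IV-D group the median log2 difference was -0.36 for core and 1.19 for regulatory genes, beside 0.46 for all genes tested. The medians were -1.03 and 0.71 in NT-D, with 0.20 for all genes, and -0.40 and 0.47 in NT-LW, with -0.18 for all genes. The core median was thus below and the regulatory median above that of all genes in all 3 groups. The signs of both medians were also kept when the libraries were scaled by median ratios (-1.18 and 0.48, -1.34 and 0.45, -0.32 and 0.54). In counts, 14 members were higher and 6 lower at the IV-D 4-cell stage (34.4% and 12.3% of all genes), 7 and 7 in NT-D (17.3% and 8.36%), and 5 and 10 in NT-LW (16.5% and 19.9%). Median-ratio scaling turned the IV-D split to 8 higher and 9 lower and the NT-D split to 5 and 10. On FPKM as deposited, 11 of 21 regulatory genes were higher and 2 lower in IV-D, and 5 and 0 in NT-D. In NT-LW 3 were higher (14.3%) and 5 lower (23.8%), so the counts there did not lean upward. Of 12 core genes 2 were higher and 4 lower in IV-D, 2 and 7 in NT-D, and 2 and 5 in NT-LW.

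The genes lower at this step in all 3 groups were 3 alpha subunits, PSMA1, PSMA4 and PSMA8. PSMA4 stood at 189.3 FPKM in the IV-D 2-cell library and 36.12 in the 4-cell library, at 145.7 and 27.82 in NT-D, and at 102.2 and 23.02 in NT-LW. PSMA1 stood at 247.3 and 56.89, at 176.7 and 85.57, and at 144.8 and 62.38. For both genes every 4-cell library was below all 20 other libraries. The genes higher in all 3 groups were the beta subunits PSMB4 and PSMB7, the ATPase PSMC6 and the lid subunits PSMD6 and PSMD7. PSMB4 stood at 0.3634 and 35.62 FPKM in IV-D (47 and 3177 fragments), at 2.091 and 10.01 in NT-D, and at 2.825 and 15.16 in NT-LW, which was 98-fold, 4.78-fold and 5.37-fold. PSMB7, whose product is the trypsin-like catalytic subunit, stood at 12.99 and 194.2, at 15.16 and 84.62, and at 17.13 and 148. PSMD6 stood at 5.282 and 39.2, at 2.464 and 20, and at 4.251 and 43.2, and 8.68% of its mRNA matches repeats elsewhere in the genome, so its reads may be shared. Core genes thus differed in direction among themselves at this step.

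**Figure D2:**
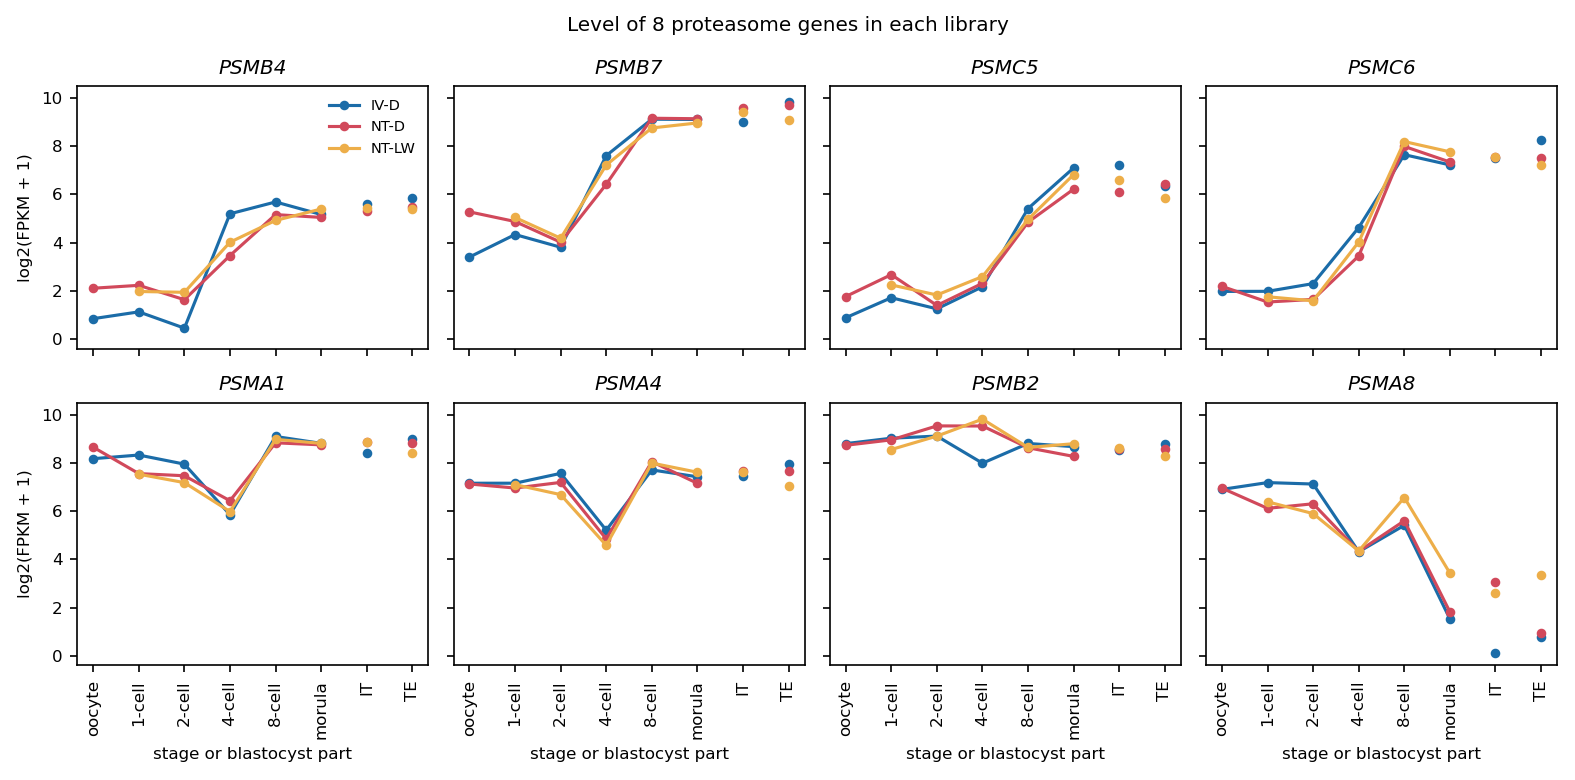
Level of 8 proteasome genes as log2(FPKM + 1) by stage, with 1 point per library. Colours give the embryo group, lines join the successive stages up to the morula, and IT and TE are separate parts of the blastocyst. PSMB4, PSMB7, PSMC5 and PSMC6 are higher in each 8-cell and morula library than in any library before the 4-cell stage, PSMA1 and PSMA4 dip at the 4-cell stage, and PSMA8 is lost.

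Between the 4-cell and the 8-cell stage most members were higher in every group. In IV-D 22 members were higher and 0 lower, beside 35% and 28.1% of all genes. In NT-D 23 were higher and 1 lower (31.4% and 28.7%), and in NT-LW 20 and 2 (28.1% and 25.6%). The member medians of 1.51, 1.70 and 1.15 stood beside all-gene medians of 0.25, 0.13 and 0.05. Rescaling or median-ratio scaling left 17 to 22 members higher and 0 to 3 lower. The members higher in all 3 groups were 15, namely PSMA1, PSMA3, PSMA4, PSMA8, PSMB1, PSMB3, PSMB7, PSMC2, PSMC5, PSMC6, PSMD10, PSMD13, PSMD14, PSME3 and PSMF1. Median-ratio scaling took PSMA8 below the limit in IV-D (0.72) and NT-D (0.97). Of the 12 core genes 7 were higher in IV-D, among them PSMA1, which went from 56.89 to 549 FPKM, a 9.65-fold difference, and PSMB1, which went from 86.4 to 703.8, or 8.15-fold.

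Among regulatory genes the largest difference was that of the ATPase PSMC5 in IV-D and of the ATPase PSMC6 in both cloned groups. PSMC6 went from 23.66 to 199.7 FPKM in IV-D, from 9.887 to 253.5 in NT-D and from 15.28 to 291.6 in NT-LW, which was 8.44-fold, 25.6-fold and 19.1-fold. PSMC5 went from 3.486 to 41.6, from 3.956 to 27.78 and from 5.016 to 30.17, which was 11.9-fold, 7.02-fold and 6.01-fold. Among lid genes PSMD13 went from 21.96 to 159.8 in IV-D, from 11.72 to 42.37 in NT-D and from 13.24 to 57.32 in NT-LW, so that the IV-D 8-cell library was the highest of the 23. PSMA4, lowest at the 4-cell stage, came back to 209.1, 265.4 and 255. PSMG3, the gene of an assembly chaperone of the core, went from 10.93 to 105.2 in NT-D and from 14.02 to 68.77 in NT-LW but stood at 22.29 and 22.87 in IV-D. The 2 members that were lower in a cloned group were PSMD3, a scaffold of the lid, at 5.69 and 1.773 in NT-D and 3.994 and 1.353 in NT-LW, and PSMB2, at 904.7 and 400.3 in NT-LW.

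**Figure D3:**
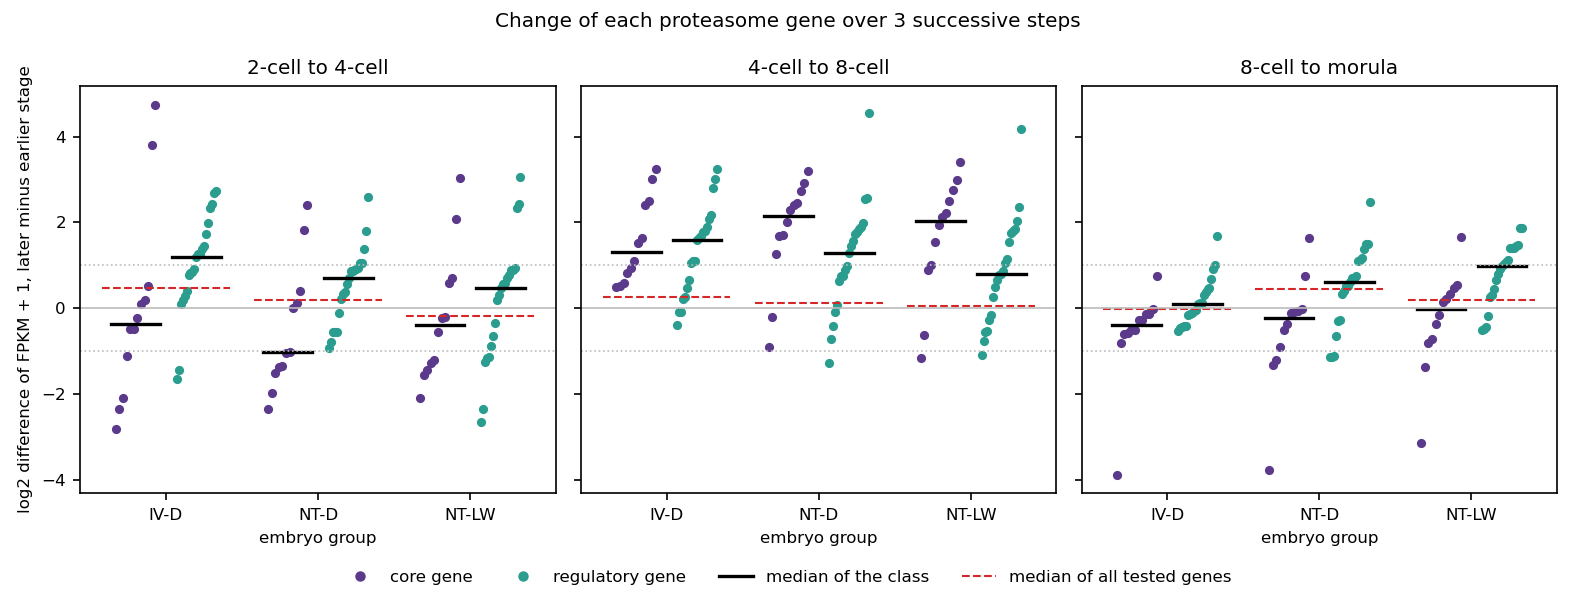
Log2 difference of FPKM + 1 (later minus earlier stage) of each core and regulatory gene at 3 steps, in each embryo group. Black bars are class medians, red dashed lines the medians of all tested genes, and dotted lines the limits of the fold rule. The core median lies below the regulatory median at the step to the 4-cell stage, and both medians lie above the all-gene median at the step to the 8-cell stage.

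From the 8-cell stage to the morula IV-D members changed little. PSMC5 (41.6 and 136.2 FPKM) and PSMD1 (39.04 and 79.38) were higher and PSMA8 (41.68 and 1.89) was lower, 3 in all beside 25.9% of genes. In the cloned groups more members changed. In NT-D 8 were higher and 7 lower, where 43.6% of genes changed, and in NT-LW 11 were higher and 2 lower, where 34.9% changed. The shares of members, 42.9% and 37.1%, were near those of all genes. Regulatory medians were 0.09 in IV-D, 0.60 in NT-D and 0.98 in NT-LW, and core medians were -0.40, -0.24 and -0.01. All-gene medians were -0.03, 0.45 and 0.19. Under median-ratio scaling the regulatory medians were 0.10, 0.14 and 0.63 and the core medians -0.39, -0.70 and -0.35. PSMC5 and PSMD1 were higher and PSMA8 lower in all 3 groups, although PSMC5 missed the limit in NT-D under median-ratio scaling (0.90). PSMC5 reached 136.2, 73.45 and 112.3 FPKM in the IV-D, NT-D and NT-LW morulae. Of the members that were higher, the largest differences in NT-D were those of PSMD3 (1.773 and 14.4) and PSMA7 (10.66 and 34.99), and in NT-LW those of PSMC3 (7.896 and 31.63) and PSMC5. Median-ratio scaling turned the NT-D split to 4 higher and 9 lower and made that of NT-LW 8 and 5. Oocyte markers summed to 173 FPKM in the NT-D morula library, with BMP15 at 116, against 6.97 and 28.4 in the IV-D and NT-LW morulae. That library thus stood apart, and the part of this in its values was not tested.

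The ratio of summed core to summed regulatory FPKM is set by the most abundant genes and need not move with the class medians. It was 6.37 in the IV-D 2-cell library, 2.02 in the 4-cell, 2.26 in the 8-cell and 1.83 in the morula library. In NT-D it was 5.28, 3.01, 2.77 and 1.81, and in NT-LW 3.11, 3.20, 2.92 and 1.81. The cloned 4-cell values rested on PSMB2, which made up 57.2% and 56.8% of the core sum there and 22.3% in IV-D. Without it the ratios were 4.41, 1.57, 1.96 and 1.56 in IV-D, 3.08, 1.29, 2.43 and 1.58 in NT-D, and 1.91, 1.38, 2.56 and 1.53 in NT-LW, so that each group had a lower value at the 4-cell than at the 2-cell and 8-cell stages. The 3 morulae, with 1.81 to 1.83, were nearer to each other than the 3 libraries of any other stage. At the 2-cell stage the regulatory genes summed to 283.8, 338.6 and 465 FPKM in IV-D, NT-D and NT-LW, and in morulae to 1538, 1387 and 1624. Scaling of a library cancels in this ratio, but gene length does not.

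**Figure D4:**
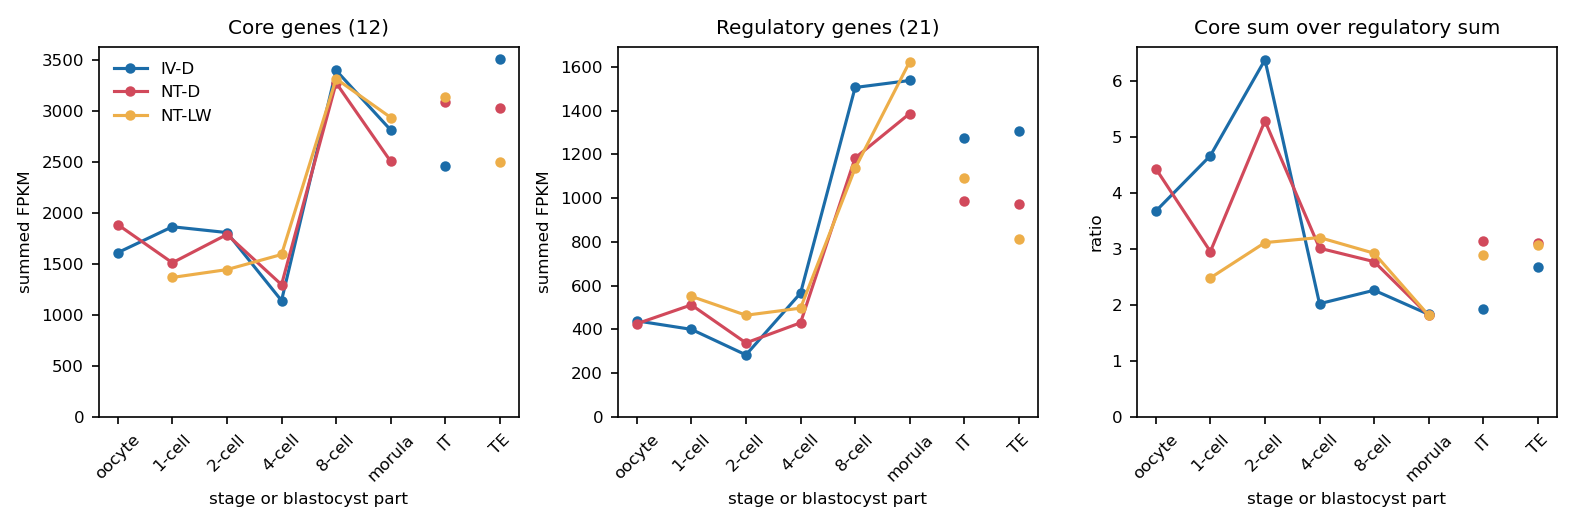
Summed FPKM of the 12 core genes and of the 21 regulatory genes, and the ratio of both sums, by stage and embryo group, with 1 point per library and no error because each condition has 1 library. Lines join successive stages up to the morula. Core sums lie at 1141 to 1886 up to the 4-cell stage and at 2464 to 3509 from the 8-cell stage, and the ratios meet at 1.81 to 1.83 in morulae.

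From the morula to the blastocyst few members changed. In the IT part 1 was lower in IV-D (15.3% of genes changed), 1 was higher and 5 lower in NT-D (44.4%), and 4 were lower in NT-LW (37.2%). In the TE part 2 were higher and 3 lower in IV-D (36.6%), 4 lower in NT-D (47.1%) and 7 lower in NT-LW (49.1%). Under median-ratio scaling the lead turned in 5 of these 6 comparisons, all but the IV-D IT one, so no direction is read from them. PSME3, the gene of the nuclear activator that opens the core without ATP, stood in morula and TE at 30.38 and 10.76 FPKM, at 30.26 and 10.08, and at 30.61 and 11.2 FPKM. It passed the limit in all 3 groups on FPKM as deposited (-1.42, -1.50 and -1.37) and in IV-D alone under median-ratio scaling (-1.03, -0.79 and -0.54). PSMA3 and PSMC6 were higher in the IV-D TE library, from 157.3 to 359 and from 148.5 to 303.7. PSMD13 was at 110.4 in the IV-D morula and 54.89 in TE, at 120.5 and 36.9 in NT-D and at 113.8 and 31.29 in NT-LW, and its calls in both cloned groups were lost under that scaling (-0.95 and -0.97). PSMD11, a lid subunit, had the largest difference in NT-D, at 144 and 22.13, and kept its call (-1.92). Between TE and IT of the same group, 4 of 104 member comparisons changed (3.85%), beside 13.2% for all genes. They were PSMA3 (157.3 in IT and 359 in TE), PSMD3 (10.63 and 4.71) and PSMG3 (43.77 and 11.56) in IV-D and PSMA8 (7.332 and 0.9366) in NT-D. FCER1G stood at 33 and 601 FPKM in the IV-D IT and TE libraries, and its part in these values was not tested.

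Before the 4-cell stage the counts differed between groups. From oocyte to 1-cell, 1 was higher and 1 lower in IV-D (21.4% of genes changed), 2 and 2 in NT-D (8.67%), and 3 and 1 in NT-LW (8.51%). From 1-cell to 2-cell, 2 were higher and 8 lower in IV-D (31.2%), 0 and 11 in NT-D (29%), and 1 and 4 in NT-LW (7.14%). Median-ratio scaling turned the first 2 of these to 7 higher and 5 lower and to 5 higher and 3 lower. PSMA7, PSMD1 and PSMD6 were lower at the 2-cell stage in all 3 groups, but PSMD1 in none under that scaling (-0.75, -0.50 and -0.94). PSMA7 stood at 23.89 and 7.504 in IV-D, at 52.69 and 11.4 in NT-D and at 47.52 and 16.47 in NT-LW. PSMF1 was tested in only some of these comparisons, because it stayed under an FPKM of 1 in the IV-D oocyte (0.8317), 1-cell (0 fragments) and 2-cell (0.9648) libraries and in the NT-D oocytes (0.3655).

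At the 8-cell stage 3 of 21 regulatory genes were lower in NT-D than in IV-D (14.3%) and 7 of 21 in NT-LW (33.3%). The NT-D share was under that of all genes, 17.4%, and the NT-LW share was above that of all genes, 17.3%. The regulatory median difference was -0.57 for NT-D as for NT-LW, and the core medians were -0.07 and -0.14, beside -0.12 and -0.02 for all genes. In NT-D 1 member was higher and 4 were lower (10.8% of genes higher), and in NT-LW 2 were higher and 8 lower (16.3% of genes higher). Median-ratio scaling left 1 and 6 lower. Lower in both were the lid genes PSMD3, PSMD8 and PSMD13, of which PSMD3 and PSMD8 did not pass in NT-D under that scaling (-0.87 and -0.99). PSMD13 stood at 159.8 FPKM in IV-D, 42.37 in NT-D and 57.32 in NT-LW, and PSMD8 at 121.2, 52.73 and 34.84. PSMG3 was higher in both, at 22.87, 105.2 and 68.77. Both counts share the IV-D library and are not independent. Of the oocyte markers, the 7 in the table summed to 19.4 FPKM in the IV-D and to 193 and 240 in the NT-D and NT-LW 8-cell libraries, and the part of this in the result was not tested.

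In morulae the median difference of regulatory genes was -0.15 for NT-D and 0.00 for NT-LW, beside 0.22 and 0.21 for all genes. Under median-ratio scaling the regulatory medians of NT-D and NT-LW were -0.37 and -0.48 at the 8-cell stage and -0.42 and -0.25 in morulae. There 0 members changed in NT-D, where 22.6% of genes did, and 1 in NT-LW, where 15.7% did. With no replicate, an absence of changed members says only that none passed the limit. The 1 was PSMA8, at 1.89 FPKM in IV-D (30 fragments) and 9.789 in NT-LW (130 fragments).

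At the 4-cell stage PSMB2 set the clones apart. It stood at 254.1 FPKM in IV-D, 742.5 in NT-D and 904.7 in NT-LW. At the 2-cell stage it had stood at 555.4, 744.8 and 555.3. It was the 1 member higher in either cloned group (9.74% and 10.8% of genes higher). Lower were 5 in NT-D and 2 in NT-LW (13.2% and 9.43%), with PSMA5 and PSMB4 in both. PSMA5 stood at 135.2, 40.55 and 66.26, and PSMB4 at 35.62, 10.01 and 15.16. The 7 oocyte markers summed to 406 FPKM in IV-D and 1560 and 1490 in the cloned 4-cell libraries, and the 5 fibroblast markers to 5.48, 31.5 and 30.6. Their part in the result was not tested.

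At the 1-cell and 2-cell stages the counts of members leaned as those of all genes did, but the core medians did not. Core medians were -0.17 for NT-D and -0.26 for NT-LW at the 1-cell stage, and 0.02 and -0.13 at the 2-cell stage. In the same order regulatory medians were 0.59, 0.53, 0.24 and 0.58, and all-gene medians 0.42, 0.35, 0.29 and 0.66. At the 2-cell stage 2 members were higher and 0 lower in NT-D (6.48% and 1.9% of genes), and 10 were higher and 1 lower in NT-LW (34.7% and 3.51%), the latter a share of 28.6% higher that turned to 3 and 12 under median-ratio scaling. The largest difference was in PSMD3, at 1.553 in IV-D, 2.667 in NT-D and 30.46 in NT-LW. At the 1-cell stage 7 members (20%) were higher and 2 lower in NT-D (18.5% and 3.44% of genes) as in NT-LW (20.8% and 4.12%), again turning under that scaling, to 2 and 6 and to 3 and 7. PSMF1 went from 0 fragments in IV-D to 125 in NT-D (3.433 FPKM) and 205 in NT-LW (4.452 FPKM), at least 42.8-fold and 55.5-fold higher when set against 3 fragments. In vitro matured oocytes had 5 members higher and 1 lower than in vivo matured ones (14.8% of genes), led by PSMB7 at 37.7 against 9.548, PSMD3 at 16.93 against 3.913 and PSMB4 at 3.299 against 0.7914. PSMD12 was lower, at 38.89 against 90.03. Under median-ratio scaling this split was 3 and 2, and that of the NT-D 2-cell library 2 and 3.

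In blastocyst parts the counts were low. In IT 1 was higher and 3 lower in NT-D (24.9%), and 1 and 2 in NT-LW (22.4%). In TE 1, PSMD11, was lower in NT-D (7.36%), at 22.13 against 77.94 FPKM, and 1 was higher and 5 lower in NT-LW (16.5%). Under median-ratio scaling the IT splits were 1 higher and 2 lower in NT-D and 1 and 1 in NT-LW. The TE splits were then 1 and 1 in NT-D and 2 and 1 in NT-LW, so no direction is read in TE. PSMA8 was the member higher in IT in both cloned groups, at 7.332 and 5.002 FPKM against 0.06846 in IV-D. The last value is 1 fragment, with an exact Poisson 95% interval of 0.0253 to 5.57 fragments for counting error alone. PSMD3 was lower in both, at 3.893 and 2.667 against 10.63. PSMD13 was just past the limit in both, at 40.82 and 41.37 against 83.92, and not under median-ratio scaling (-0.90 and -0.95).

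Few members passed the limit between the 2 cloned groups. Over 7 stages 9 of 245 member comparisons changed (3.67%), beside 10.2% for all genes. PSMD3 accounted for 3 of them and PSMA8 for 2. The largest was PSMD3 at the 2-cell stage, at 2.667 in NT-D and 30.46 in NT-LW.

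Within the alpha ring PSMA1 had the highest mean level, 329.4 FPKM, and PSMA7 the lowest, 28.59. With RefSeq mRNA lengths PSMA2 was highest, at 978.6, and PSMA8 lowest, at 22.16. PSMA2 lay between 120.4 and 388.3 with a median of 201.5, and its SD of 0.44 on the log2 scale was the lowest but 1 of the members. It still passed the limit in NT-D at the steps to the 4-cell stage (245.2 and 120.4), the 8-cell stage (388.3) and the morula (168). Like the median of the alpha ring, PSMA8 went down at the 4-cell stage and up at the 8-cell stage, and it then fell further than that median. Not every alpha gene moved this way, as PSMA7 stood at 12.35 and 10.66 FPKM in the NT-D 4-cell and 8-cell libraries. PSMA8 stood at 119, 145 and 139 FPKM in the IV-D oocyte, 1-cell and 2-cell libraries, 18.93 in the 4-cell and 41.68 in the 8-cell library, and 1.89 in the morula. The cloned groups followed, with 123.3 in their oocytes, 47.64 and 93.92 at the 8-cell stage and 2.53 and 9.789 in morulae. Its SD of 2.27 compares with a median of 1.02 for the genes of the table.

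In the beta ring PSMB2 had the highest mean level (466.5) and the lowest SD of all members (0.42), and PSMB3 the lowest mean (22.53). With RefSeq lengths PSMB4 was lowest, at 147.3, next to PSMB3 at 160.7. The most variable genes of the family were PSMC6 (SD 2.76), PSMB7 (2.33) and PSMC5 (2.28). PSMB7 was at 9.548 to 37.7 FPKM in the 8 oocyte, 1-cell and 2-cell libraries, at 84.62 to 194.2 at the 4-cell stage and at 432.1 to 910.6 afterwards, with no overlap between these ranges. In the same 8 libraries PSMB4 was at 0.3634 to 3.675 and PSMB2 at 377.2 to 744.8.

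The 6 ATPases form a ring in which each is present once, and they ran closest together. The median pairwise r of log2(FPKM + 1) over 23 libraries was 0.88 (0.56 to 0.95). It was 0.61 in the beta ring, 0.39 among the 9 non-ATPase subunits and 0.34 in the alpha ring, where it went down to -0.57. These are descriptions, since all points share libraries and stages. PSMC6 had the highest mean among ATPases (110) and PSMC1 the lowest (17.03), next to PSMC3 (17.12). With RefSeq lengths PSMC3 was lowest, at 33.49, and PSMC1 stood at 60.68. PSMC1 stood at 2.456 to 9.271 FPKM up to the 4-cell stage and at 16.11 to 36.58 afterwards. PSMC3 did not separate in this way, at 4.093 to 15.5 and 7.896 to 39.81.

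Among lid and non-ATPase genes PSMD14, the deubiquitinase, had the highest mean (102.7), at 19.25 to 77.2 FPKM early and 74.58 to 234.4 late. PSMD3 had the lowest (7.737), and in late libraries its median of 4.301 was below that of each other non-ATPase subunit, also with RefSeq lengths. PSMD12 had an SD of 0.51 and a range of 30.67 to 130.4, and it passed the limit in IV-D at the steps to the 1-cell (90.03 and 30.67) and the 2-cell stage (71.05). The activator genes stayed low, PSME3 at 1.787 to 30.61 and PSME4, whose product is known from sperm cells, at 2.959 to 14.73. PSME3IP1 lay at 4.675 to 18.39, with an SD of 0.46. PSMF1, at 0 to 6.406 FPKM early and 16.43 to 50.64 late, had separate ranges before and after the 8-cell stage, whereas those of PSMG3 overlapped, at 10.93 to 68.45 and 11.56 to 105.2.

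Of 46 other genes of the pathway, 34 were in the table. Between 4-cell and 8-cell libraries, 13 of them (38.2% of those tested) were higher and 4 lower in IV-D, 8 (24.2%) and 3 in NT-D, and 11 (33.3%) and 3 in NT-LW. The shares higher were near those of all genes, 35%, 31.4% and 28.1%. The shares lower, 11.8%, 9.09% and 9.09%, were under those of all genes, 28.1%, 28.7% and 25.6%. POMP, the chaperone that completes the core, moved with the members, at 41.46, 114.3 and 274.5 FPKM in the IV-D 2-cell, 4-cell and 8-cell libraries, 36.9, 67.77 and 481.2 in NT-D, and 29.3, 104.8 and 575.3 in NT-LW. PAAF1, which binds free ATPases, went from 1.21, 6.127 and 2.538 at the 4-cell stage to 33.11, 38.75 and 14.69. AKIRIN2, whose product brings proteasomes into the nucleus, ran the other way. It stood at 13650 FPKM in the IV-D 2-cell library, 1599 at the 4-cell and 62.35 at the 8-cell stage, against 9783, 1881 and 698.9 in NT-D and 7019, 1149 and 417.7 in NT-LW, so that the cloned 8-cell libraries held more of it. NFE2L1 lay between 0.9643 and 5.108 in all 23 libraries.

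Levels of different subunits depend on the gene length by which fragments were divided. The length the authors used, recovered from their values, was 7.13 times the longest RefSeq mRNA for PSMB3 (5022 and 704 bases), 5.95 times for PSMB4 (5626 and 945) and 1.05 times for PSMA3 (2943 and 2799). It was below that mRNA for PSMD11 (1263 and 3068) and PSMD6 (1614 and 3617). With the authors' length the late medians of the 11 core genes other than PSMA8 ran from 33.05 (PSMB3) to 559.7 (PSMB7), a 16.9-fold range. With the RefSeq length they ran from 172 (PSMA7) to 884.2 (PSMA2), a 5.14-fold range. Within single late libraries the range with the RefSeq length was smallest in IV-D TE, at 3.33-fold. It was 13.3-fold, 32.7-fold and 38.3-fold in the IV-D, NT-D and NT-LW 8-cell libraries. The log2 SD among these core genes had a late median of 1.6 with the authors' length and 0.855 with the RefSeq length, and that among regulatory subunits 1.355 and 1.55. The ratio of core to regulatory sums became 4.15, 3.04 and 2.34 from the IV-D 4-cell library to the morula, and 2.45 and 2.39 in the cloned morulae. The FPKM ratio of 1 gene between libraries does not depend on length. Differences of log2(FPKM + 1) and the minimum FPKM of 1 do, mainly for low genes. PSMF1 in the IV-D oocytes, at 0.8317 FPKM, stood at 1.494 with the RefSeq length.

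**Figure D5:**
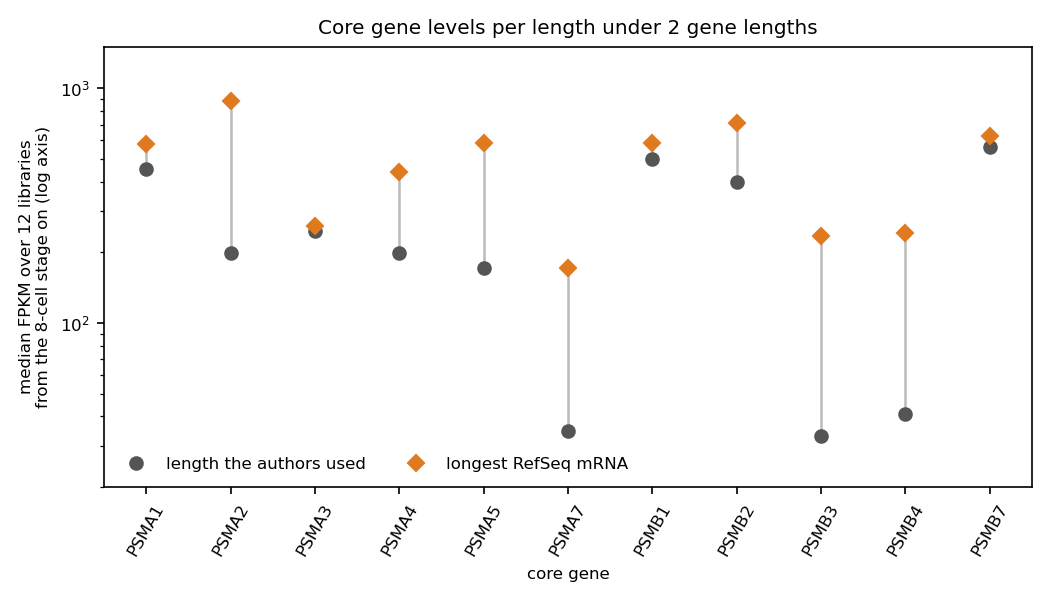
Median FPKM of 11 core genes over the 12 libraries from the 8-cell stage on (log axis), with the gene length the authors used (circles) and with the longest RefSeq mRNA (diamonds), joined by grey lines. PSMA7, PSMB3 and PSMB4 are the lowest with the authors' length and move up most, together with PSMA2 and PSMA5, with the RefSeq length.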

How the data were processed

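RNA with poly(A) tails from pooled oocytes or embryos was amplified with a SMART-Seq v4 kit and sequenced as paired 150 bp reads, 1 library for each of 23 conditions. Per the labels and the study's methods, the authors mapped reads to the Sscrofa11.1 assembly with HISAT2 2.0.4, counted them by gene with HTSeq 0.9.1 and deposited FPKM values of 8603 genes in 1 table, labelled as differentially expressed genes, with no rule of selection given in the sources used here. DESeq is among the tools named in the submitters' processing notes. Comparisons made by the authors were not used. Amplification was not stated to keep strand, so overlapping genes on opposite strands cannot be told apart.

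The members and gene lists were chosen with earlier results of these data known. Groups came from the labels. Whole fragments were recovered from the FPKM steps for 8591 genes (99.9%, within a relative tolerance of 1e-06), which gave the depth of 14952784 to 22991067 fragments (median 18896560) and the length the authors had used for each gene. Because no condition had a replicate, no count test was run, and intervals cover counting error only. Differences are of log2(FPKM + 1), a scale that understates changes of low genes, and a gene was tested where FPKM was at least 1 in one of the 2 libraries. Values were named for the highest and lowest mean level and the largest and smallest SD of a class, for up to 3 members with the largest difference each way in a comparison, and for members under 1 FPKM. Members that changed in all 3 groups were named after their values were seen. Results were recomputed with a 1.5-fold limit, a minimum FPKM of 5, a pseudocount of 0.1, libraries rescaled to a sum of 1000000, median-ratio scaling and, chosen after seeing the data, RefSeq mRNA lengths and the core without PSMB2. Promoters and mRNAs came from RefSeq for Sscrofa11.1, and copies of at least 95% identity over 150 bases were sought with blastn 2.17.0. Scripts used matplotlib 3.10.9, scipy 1.17.1, pandas 2.3.3 and numpy 2.4.6 under Python 3.11.15, and the recovery of fragments and calls was tested on simulated data. The ratio of immunoproteasome to constitutive catalytic genes was not analysed here.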

Additional observations from a re-analysis of the deposited data

Results flagged for a closer look

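Members that passed the fold limit in opposite directions in different embryo groups are listed with their log2 differences, and these differences between groups were not tested. PSMD3, a scaffold of the lid, differed by -2.45 in IV-D, -2.75 in NT-D and 1.75 in NT-LW from the 1-cell to the 2-cell stage. From there to the 4-cell stage it differed by 1.27 in IV-D and -2.66 in NT-LW, so that the NT-LW 2-cell library, at 30.46 FPKM, was involved in both. PSMD8, another lid gene, differed by 1.26 in IV-D and -1.25 in NT-LW at the latter step. PSMD12 differed by -1.52 from the oocyte to the 1-cell stage in IV-D and by 1.12 in NT-LW, where the oocyte is the in vitro matured library shared with NT-D. PSMA8 differed by -1.44 from the morula to IT in IV-D, a value that rests on 1 fragment in IT, and by 1.24 in NT-D.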

How the results depend on the processing

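With 1 library a condition, no replicate could be left out. No paired analysis was possible because each condition has 1 library here, so the groups share fewer than 2 replicate numbers. Of 300 single member differences past the limit none reversed in any setting. Median-ratio scaling took 88 of them below the limit, rescaling 22, the minimum FPKM of 5 14, and the pseudocount and the 1.5-fold limit 0.
The step from 4-cell to 8-cell kept its lead of higher members under each setting.
With a 1.5-fold limit, changed members numbered 10, 19, 9, 5 and 14 in IV-D (oocyte to 1-cell, 1-cell to 2-cell, 8-cell to morula, morula to IT and to TE), 11, 18, 24, 10 and 12 in NT-D (oocyte to 1-cell, 1-cell to 2-cell, 2-cell to 4-cell, morula to IT and to TE), and 12, 10, 26, 21, 12 and 18 in NT-LW (as in NT-D, with 8-cell to morula before the last 2). Against IV-D they numbered 14, 20, 10, 15, 13, 3, 13 and 5 in NT-D from oocyte to TE and 21, 21, 9, 16, 2, 10 and 15 in NT-LW from 1-cell to TE, with 22 between TE and IT and 35 between cloned groups.
Median-ratio scaling reversed the leading direction of 17 of 38 counts. These became 12, 17 and 8 in IV-D (1-cell to 2-cell, 2-cell to 4-cell, morula to TE), 8, 13, 6 and 7 in NT-D (1-cell to 2-cell, 8-cell to morula, morula to IT and to TE) and 3, 3 and 4 in NT-LW (oocyte to 1-cell, morula to IT and to TE). Set against IV-D, NT-D had 8 (1-cell) and 5 (2-cell) and NT-LW 10 (1-cell), 15 (2-cell) and 3 (TE), with 5 between TE and IT and 7 between cloned groups. It also moved NT-D against IV-D to 2 at the 8-cell stage, 1 in morulae and 2 in TE, and the median member sums to 2061 and 3889 FPKM before and from the 8-cell stage.
Rescaling moved counts to 5 (IV-D oocyte to 1-cell), 7 (NT-D morula to TE), 9 and 16 (NT-LW morula to IT and to TE), 10 and 2 (4-cell and TE, NT-D against IV-D) and 14 (1-cell, NT-LW against IV-D), and the sums to 4053 and 7218. A pseudocount of 0.1 gave 8 for IV-D morula to TE and 4, 1 and 2 for NT-D 2-cell, morula and TE libraries against IV-D. A minimum FPKM of 5 gave 0 for IV-D morula to IT and 0 for the NT-D 2-cell library against IV-D.
The median core to regulatory ratio of 3.2 up to the 4-cell stage and 2.73 later became 6.77 and 5.16 with medians in place of sums, 3.16 and 2.71 without PSMA8, 4.1 and 3 without PSME genes and assembly factors, 5.82 and 3.5 with RefSeq lengths, and 1.98 and 2.39 without PSMB2, which turned their order. Beyond what each setting changes by construction, the cause was not tested. Depth limits PSMA8 in the IT and TE parts of IV-D (1 and 8 fragments). It also limits PSMF1 in the IV-D 1-cell (0 fragments) and NT-D oocyte (15 fragments) libraries.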
